A study of Mus musculus with 4 samples.

Results

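The genes described here encode 8 transcription factors that set the fate of myeloid blood cells: the C/EBP family members Cebpa, Cebpb, Cebpd, Cebpe and Cebpg, the PU.1 gene Spi1, and the genes Gfi1 and Irf8. The members are defined by gene symbol and not by a threshold on their values, and all 8 were found among the 47561 genes with an expression value in each library. RNA-seq was performed on LSK cells, a marrow fraction sorted as Lin-Sca-1+c-Kit+ that contains stem cells and multipotent progenitors, and each of 2 groups had 2 libraries of separate mice. Metrn cKO libraries came from mice with floxed Metrn alleles and LysM, and Metrn f/f libraries came from mice with the floxed alleles alone, which the labels call wild type. All 4 mice were C57BL/6 animals of 12 weeks. LysM is used as a driver of deletion in macrophages, monocytes and neutrophils, so the deletion was directed at descendants of the sorted cells rather than at the LSK cells as such.

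C/EBP proteins bind DNA as dimers joined by a leucine zipper, and members of the family can pair with each other. In marrow, C/EBPα is needed for the step to granulocyte and monocyte progenitors, C/EBPε for the later, granule-filled stages of neutrophils and eosinophils, and C/EBPβ for granulocyte production under stress. PU.1, an ETS factor, acts with them on genes of myeloid receptors and enzymes, while the repressor GFI1 and the factor IRF8 oppose each other where neutrophil and monocyte fates part.

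Values were taken as FPKM, fragments per kilobase of transcript scaled to the mapped reads of a library, as inferred from the deposited numbers, so levels of different genes can be set side by side per length. The FPKM values of a library summed to between 392718 and 671802, and the 20 most abundant genes took between 8.71% and 21.9% of that sum. Metrn itself had 42.3 and 36.7 FPKM in Metrn cKO 1 and 2, against 29.3 and 66.3 in Metrn f/f 1 and 2, so its groups overlapped. Lyz2, the gene at the LysM locus, had 2904 and 245 FPKM in Metrn cKO, against 290 and 2406 in Metrn f/f. Of 8 LSK markers 7 or 8 reached 1 FPKM in each library, but markers of mature cells were there as well. The summed FPKM of 10 neutrophil markers, all of them at 1 FPKM or more in all libraries, was 58488 and 2009 in the Metrn cKO libraries and 2561 and 32594 in the Metrn f/f libraries. Metrn cKO 1 and Metrn f/f 2 thus held far more transcripts of mature cells than Metrn cKO 2 and Metrn f/f 1. In such bulk libraries fewer cells of a type and less RNA per cell cannot be told apart.

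The design holds 1 comparison, Metrn cKO against Metrn f/f, and no member passed its test. At a threshold of 0.05 on limma's adjusted p, 0 of the 8 members were higher and 0 were lower, where the background over 13148 tested genes was 0% in each direction. At an unadjusted p under 0.05 the members also gave 0, against 39 of all tested genes (0.297%), of which 8 were higher (0.0608%) and 31 lower (0.236%). Groups did not overlap for 1 member that was higher in both Metrn cKO libraries, Cebpg, and for 1 that was lower, Cebpa. Over all tested genes the shares were 6.31% for higher and 5.73% for lower. The other 6 members had overlapping groups. With 2 mice a group, an exact permutation test of a single gene cannot go below p = 0.333, two-sided.

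**Figure D1:**
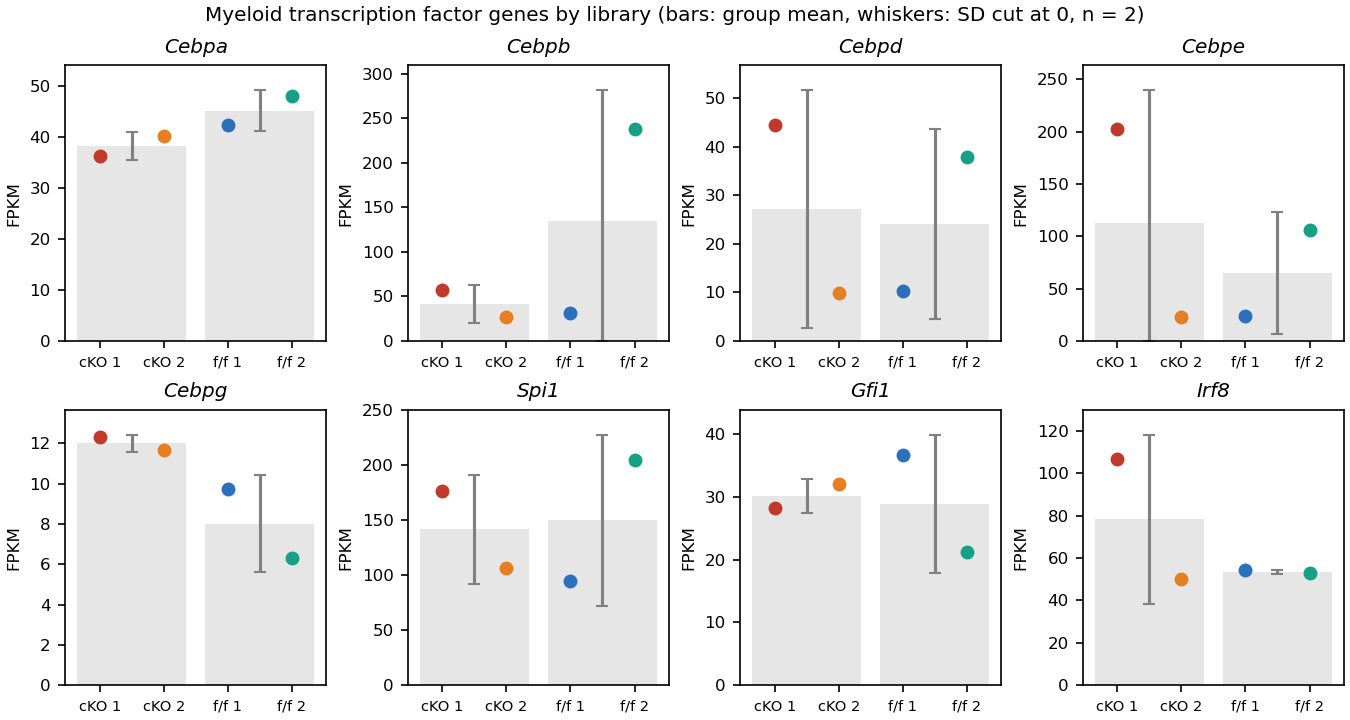
FPKM of each of the 8 genes (vertical axes, each from 0) in Metrn cKO 1, Metrn cKO 2, Metrn f/f 1 and Metrn f/f 2; points are libraries, grey bars are group means and whiskers the SD (n = 2, lower end cut at 0). Cebpb stands highest in Metrn f/f 2 at 238 FPKM and Cebpe in Metrn cKO 1 at 202 FPKM, while Cebpa stays between 36.4 and 48.0 FPKM.

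Cebpa, the factor that opens the granulocyte and monocyte path, varied little between libraries as deposited. It had 36.4 and 40.2 FPKM in Metrn cKO 1 and 2, against 42.3 and 48.0 FPKM in Metrn f/f 1 and 2. The groups did not overlap, but the gap between the nearest libraries was small beside the test's error. Its mean was 38.3 ± 2.67 FPKM in Metrn cKO and 45.2 ± 4.03 FPKM in Metrn f/f (SD, n = 2 each). The genotypes differed by -0.23 in log2 (SE 0.37), which did not pass (limma, adjusted p = 1.00). Its highest library exceeded its lowest by 1.32-fold as deposited, the narrowest range among the 8 genes on that scale. With equal library sums it spanned 1.67-fold and Spi1 spanned 1.30-fold. The gap between the groups also depended on the scaling. With each library rescaled to a sum of 1000000, Cebpa had 64.7 and 97.2 units in Metrn cKO and 108 and 71.5 units in Metrn f/f, and the groups overlapped. With median-ratio scaling it stayed lower, at 38.7 and 36.4 in Metrn cKO and 40.0 and 52.5 in Metrn f/f.

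Cebpb, which is induced by cytokines and drives emergency granulopoiesis, differed more between the Metrn f/f mice than between the genotype means. It had 56.8 and 26.7 FPKM in Metrn cKO 1 and 2, against 30.8 and 238 FPKM in Metrn f/f 1 and 2. Metrn f/f 2 stood alone, 7.74-fold above the other Metrn f/f library, and Metrn cKO 1 was 2.13-fold above Metrn cKO 2. Group means were 41.7 ± 21.3 FPKM in Metrn cKO and 135 ± 147 FPKM in Metrn f/f (SD, n = 2 each). In log2 the genotypes differed by -1.12 (SE 0.94; limma, adjusted p = 1.00). Its log2 difference was 0.33 without Metrn f/f 2 and -2.58 without Metrn f/f 1. Among all tested genes, the distance between the Metrn f/f libraries in Cebpb was larger than that of 98.5%.

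The promoter of Cebpb is shown because the gene had the widest gap between the Metrn f/f libraries, and because CREB-type factors are known to act on it. The 250 bases before its annotated start, chr2:167688665-167688914 on the plus strand of GRCm38.p6 from RefSeq, hold 3 copies of the CRE core TGACG on either strand, in capitals (its reverse complement reads CGTCA).
Cebpb: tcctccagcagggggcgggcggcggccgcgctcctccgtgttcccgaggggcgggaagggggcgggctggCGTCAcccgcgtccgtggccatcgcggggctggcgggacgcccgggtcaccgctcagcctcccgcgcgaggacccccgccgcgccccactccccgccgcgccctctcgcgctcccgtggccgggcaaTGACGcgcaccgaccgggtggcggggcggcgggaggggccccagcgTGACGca
At least 1 copy stood in 17.8% of 32851 RefSeq promoters cut to the same length, and at least 3 copies in 0.688%. The window was rich in GC, at 81.6%, and the promoters were not matched to it for GC. Other motifs searched on both strands were not in the window. They were TTNNGNAA of C/EBP factors (in 36.8% of the promoters), GAGGAA of PU.1 (23.3%), the GAS motif TTCNNNGAA (7.02%) and TATAAA (12.4%). A match of letters describes the window and is no evidence of binding.

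Cebpd, an acute-phase relative of Cebpb, had 44.4 and 9.77 FPKM in Metrn cKO 1 and 2, against 10.2 and 37.9 FPKM in Metrn f/f 1 and 2. The library with few mature cell transcripts was the low one in each genotype. Metrn cKO 1 was 4.55-fold above Metrn cKO 2 and Metrn f/f 2 was 3.72-fold above Metrn f/f 1, and the log2 fold change between genotypes was 0.08 (SE 0.86). Genes that C/EBPβ and C/EBPδ are known to induce were compared as a list of 10, of which 5 reached the expression filter. None passed by limma, at 0 higher and 0 lower. Groups were apart in 1, on the lower side (5.73% of all tested genes). The median log2 fold change was -1.0 against 0.07 for all tested genes. That median was 0.39 without Metrn f/f 2, -0.35 without Metrn cKO 2, -0.47 over genes with a mean of at least 4 FPKM and -0.06 with no filter. Ptgs2, the inducible cyclooxygenase, had 0.445 and 0.816 FPKM in Metrn cKO, against 2.19 and 4.67 FPKM in Metrn f/f, and was the only gene of the list whose groups did not overlap (unadjusted p = 0.0454, adjusted p = 1.00, limma). The acute-phase gene Hp had 479 and 70.6 FPKM in Metrn cKO, against 95.9 and 326 FPKM in Metrn f/f. The siderophore-binding gene Lcn2 had 2926 and 123 FPKM in Metrn cKO, against 135 and 1638 FPKM in Metrn f/f. Il6, Csf3, Saa3, Ptx3 and Nos2 did not reach 1 FPKM in 2 libraries.

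Cebpe, the factor of terminal granulocyte maturation, had a range as wide as that of Cebpb. It had 202 and 22.6 FPKM in Metrn cKO 1 and 2, against 23.8 and 106 FPKM in Metrn f/f 1 and 2. The highest library exceeded the lowest by 8.96-fold, against 8.94-fold for Cebpb, and both of these were Metrn cKO libraries. With median-ratio scaling the ranges were 10.5-fold for Cebpe and 10.8-fold for Cebpb. Group means were 112 ± 127 FPKM in Metrn cKO and 64.9 ± 58.0 FPKM in Metrn f/f (SD, n = 2 each). In log2 the genotypes differed by 0.43 (SE 1.11; limma, adjusted p = 1.00). Secondary granule genes, many of which need C/EBPε, followed the library order of Cebpe in their sum but not in each gene. The summed FPKM of the 9 genes was 23871 and 857 in Metrn cKO 1 and 2, against 1091 and 12347 in Metrn f/f 1 and 2. Camp, which encodes cathelicidin, had 7818 and 190 FPKM in Metrn cKO, against 235 and 4617 FPKM in Metrn f/f. Ngp, neutrophilic granule protein, had 8718 and 277 FPKM in Metrn cKO, against 372 and 3894 FPKM in Metrn f/f. Retnlg, a resistin-like gene, was instead highest in Metrn f/f 2, with 122 and 74.8 FPKM in Metrn cKO, against 74.1 and 608 FPKM in Metrn f/f, as was the collagenase gene Mmp8; both were named after their values were seen. The list's median log2 fold change was 0.35 and ran from -1.57 without Metrn cKO 1 to 2.63 without Metrn cKO 2. All 9 genes were tested, 0 passed in either direction by limma, and no group was apart from the other in any of them. Of the list, 6 genes are also neutrophil markers here, so it is no separate measure of C/EBPε action.

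Eosinophils also depend on C/EBPε, and their 5 markers summed to 1771 and 175 FPKM in Metrn cKO 1 and 2, against 94.0 and 2274 FPKM in Metrn f/f 1 and 2. Prg2, the major basic protein of eosinophil granules, had 1301 and 117 FPKM in Metrn cKO, against 67.0 and 1717 FPKM in Metrn f/f. Here Metrn f/f 2 exceeded Metrn cKO 1, whereas Cebpe had the opposite order in these libraries. The part of mature neutrophils and eosinophils in the Cebpe levels was not tested.

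Cebpg encodes a short C/EBP that lacks a transactivating part and pairs with other bZIP proteins, among them ATF4. It had 12.3 and 11.7 FPKM in Metrn cKO 1 and 2, against 9.71 and 6.30 FPKM in Metrn f/f 1 and 2. Both Metrn cKO libraries were higher, and they were close to each other. Group means were 12.0 ± 0.440 FPKM in Metrn cKO and 8.01 ± 2.41 FPKM in Metrn f/f (SD, n = 2 each). The log2 difference, 0.55 (SE 0.47), did not pass (limma, adjusted p = 1.00). Without Metrn f/f 2 it was 0.28, and with libraries rescaled to equal sums the groups overlapped, at 21.9 and 28.3 units in Metrn cKO and 24.7 and 9.38 units in Metrn f/f. With median-ratio scaling it stayed higher, at 13.1 and 10.6 in Metrn cKO and 9.19 and 6.89 in Metrn f/f. Cebpg lies 62.7 kb from Cebpa on chromosome 7, and its pattern over the libraries was another one: Cebpa was highest and Cebpg lowest in Metrn f/f 2.

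Partners and degraders of C/EBP proteins were compared as a list of 10 genes, 9 of them tested. None passed by limma (0 higher, 0 lower). On the higher side in Metrn cKO 1 gene stood apart (6.31% of all tested genes), and on the lower side 3 did (5.73%). The median log2 fold change was -0.29, or -0.95 without Metrn f/f 1. Trib1, the pseudokinase that directs C/EBPα to degradation, had 3.02 and 1.99 FPKM in Metrn cKO, against 4.06 and 10.4 FPKM in Metrn f/f. Atf3, a stress-induced bZIP factor, had 2.19 and 0.316 FPKM in Metrn cKO, against 2.48 and 42.1 FPKM in Metrn f/f. Jun, an AP-1 subunit that can bind C/EBPα, had 191 and 313 FPKM in Metrn cKO, against 405 and 531 FPKM in Metrn f/f. These were the 3 lower genes, and their unadjusted p by limma lay between 0.0691 and 0.134. The pseudokinase gene Trib3, named after its values were seen as the gene apart on the higher side, had 1.82 and 3.24 FPKM in Metrn cKO, against 1.61 and 1.08 FPKM in Metrn f/f. Atf4 had 117 and 108 FPKM in Metrn cKO, against 107 and 218 FPKM in Metrn f/f, with overlapping groups.

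Immediate early genes, which stimulation or handling induces within minutes, were lower in both Metrn cKO libraries in 12 of 13 tested members. Over all tested genes that share was 5.73%. The list was written with earlier results of these data known, so this count is a description and no test. The list's median log2 fold change was -1.60, against 0.07 for all tested genes, and 0 passed by limma. The median was -0.80 without Metrn f/f 2. Fos had 174 and 288 FPKM in Metrn cKO, against 391 and 873 FPKM in Metrn f/f. Nr4a1, an orphan nuclear receptor, had 5.37 and 9.83 FPKM in Metrn cKO, against 74.7 and 210 FPKM in Metrn f/f. It was called lower without Metrn cKO 2 (limma, adjusted p = 0.00039). Fosb and Klf6 had log2 fold changes of -2.03 and -1.50. Cebpb and Cebpd, which inflammatory signals also induce, had overlapping groups. Metrn cKO 1 exceeded Metrn f/f 1 in both, by 0.86 and 2.02 in log2(FPKM + 1). Metrn cKO 1 minus Metrn f/f 2 gave -2.05 for Cebpb and 0.22 for Cebpd. Metrn cKO 2 minus Metrn f/f 1 gave -0.20 and -0.06, and Metrn cKO 2 minus Metrn f/f 2 gave -3.11 and -1.85. Cebpb was thus lower in Metrn cKO in each of these pairs but the first. The pairs share libraries and are not separate comparisons, and the log2 fold change of Cebpb was 0.33 without Metrn f/f 2.

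The make-up of the C/EBP family differed widely between libraries of the same genotype. The 5 C/EBP genes summed to 352 and 111 FPKM in Metrn cKO 1 and 2, against 117 and 436 FPKM in Metrn f/f 1 and 2. Cebpa took 10.3% and 36.2% of that sum in the Metrn cKO libraries, against 36.2% and 11.0% in the Metrn f/f libraries. Cebpe led in Metrn cKO 1 with 57.4% and Cebpb led in Metrn f/f 2 with 54.6%, so the family was dominated by a different gene in each of these libraries. In Metrn cKO 2 the shares of Cebpb and Cebpe were 24.1% and 20.4%, and in Metrn f/f 1 they were 26.3% and 20.4%. The ratio of Cebpe to Cebpa in FPKM was 5.56 and 0.562 in Metrn cKO, against 0.563 and 2.20 in Metrn f/f. The ratio of Cebpb to Cebpa was 1.56 and 0.664 in Metrn cKO, against 0.727 and 4.96 in Metrn f/f. Ratios of genes within a library do not depend on its scaling.

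**Figure D2:**
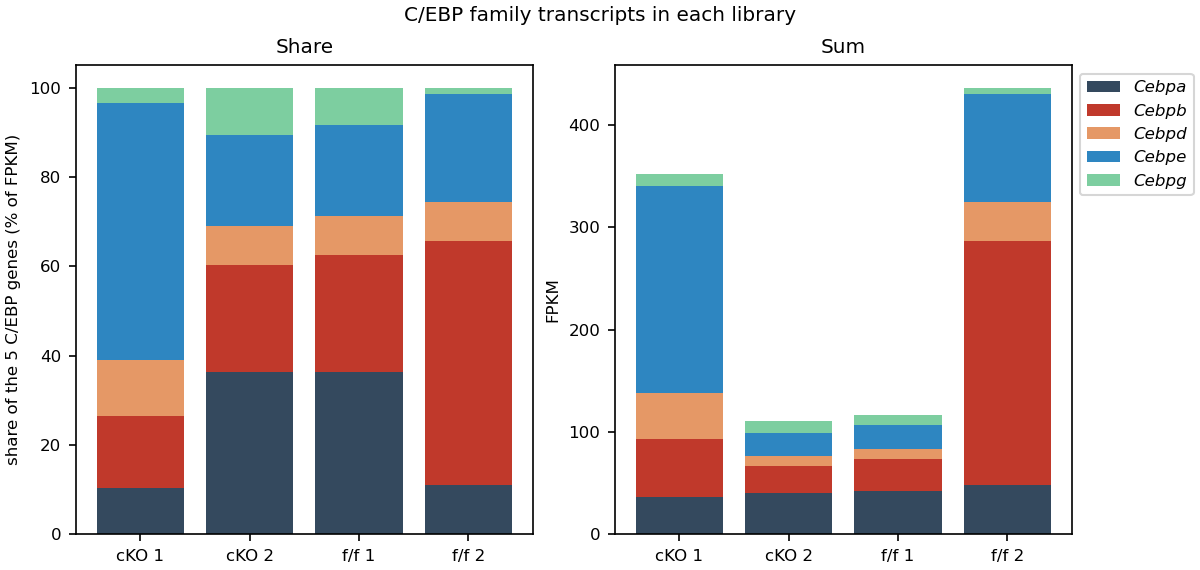
Share of each C/EBP gene in the summed FPKM of the 5 C/EBP genes (left, percent) and the sum itself (right, FPKM) in the 4 libraries. Metrn cKO 2 and Metrn f/f 1 have nearly the same make-up, with Cebpa at 36.2% in each, while Cebpe takes 57.4% in Metrn cKO 1 and Cebpb 54.6% in Metrn f/f 2.

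Spi1 encodes PU.1, whose dose sets the choice between myeloid, lymphoid and erythroid fates. It had 176 and 107 FPKM in Metrn cKO 1 and 2, against 94.4 and 205 FPKM in Metrn f/f 1 and 2. It was the most abundant member in Metrn cKO 2 and Metrn f/f 1 and the next most abundant in the other libraries, and it lay above at least 95.5% of the tested genes in each. Group means were 141 ± 49.1 FPKM in Metrn cKO and 149 ± 77.9 FPKM in Metrn f/f (SD, n = 2 each). In log2 the genotypes differed by -0.02 (SE 0.54; limma, adjusted p = 1.00). Its sign was not stable: it was 0.07 with libraries rescaled to equal sums, 0.53 without Metrn f/f 2 and -0.57 without Metrn f/f 1. The ratio of Spi1 to Cebpa was 4.84 and 2.65 in Metrn cKO, against 2.23 and 4.26 in Metrn f/f.

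Receptor genes that PU.1 and C/EBP factors are known to switch on formed a list of 10, all tested. By limma 0 were higher and 0 lower, no member had groups apart, and the median log2 fold change was -0.03, between -0.28 and 0.33 with single libraries left out. Csf3r, the G-CSF receptor gene, had 46.7 and 68.8 FPKM in Metrn cKO, against 79.4 and 43.1 FPKM in Metrn f/f, and was thus low in the libraries where Spi1 was high. Fcgr3, an Fc receptor gene of neutrophils and macrophages, had 74.4 and 25.3 FPKM in Metrn cKO, against 36.3 and 92.5 FPKM in Metrn f/f. Csf1r, the M-CSF receptor gene and a textbook target of PU.1, had 24.3 and 15.0 FPKM in Metrn cKO, against 13.3 and 28.0 FPKM in Metrn f/f. Gata1, which encodes the erythroid factor that PU.1 antagonises, had 3.10 and 2.55 FPKM in Metrn cKO, against 4.02 and 17.8 FPKM in Metrn f/f. Its unadjusted p by limma was 0.110. The ratio of Spi1 to Gata1 was 56.8 and 41.8 in Metrn cKO and 23.5 and 11.5 in Metrn f/f. Groups were apart in this ratio as in Gata1, while those of Spi1 overlapped. How often such ratios are apart over all genes was not computed. The summed FPKM of 7 erythroid markers was 18973 and 1975 in Metrn cKO and 2414 and 22905 in Metrn f/f, and their part in this ratio was not tested.

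Gfi1, a repressor that favours neutrophils over monocytes and restrains stem cell cycling, had 28.2 and 32.1 FPKM in Metrn cKO 1 and 2, against 36.8 and 21.2 FPKM in Metrn f/f 1 and 2. The Metrn cKO values lay between the Metrn f/f values. Group means were 30.2 ± 2.73 FPKM in Metrn cKO and 29.0 ± 11.0 FPKM in Metrn f/f (SD, n = 2 each). In log2 the genotypes differed by 0.10 (SE 0.43; limma, adjusted p = 1.00). Unlike Cebpe, Gfi1 was lower as deposited in the libraries rich in neutrophil transcripts. With median-ratio scaling this held in Metrn f/f only, at 30.1 and 29.1 in Metrn cKO and 34.8 and 23.2 in Metrn f/f. Of 10 genes that GFI1 is known to repress, 9 were tested and 0 passed in either direction by limma. Groups were apart in 1, on the lower side (5.73% of all tested genes). The median log2 fold change of -0.26 was 0.21 without Metrn cKO 1 and -0.62 without Metrn cKO 2. That gene was Cdkn1a, the p21 inhibitor of cell cycle kinases, with 13.5 and 11.9 FPKM in Metrn cKO, against 19.7 and 40.2 FPKM in Metrn f/f (unadjusted p = 0.0603). Id2, an inhibitor of E proteins, had 63.7 and 10.6 FPKM in Metrn cKO, against 10.7 and 63.4 FPKM in Metrn f/f. The homeobox gene Meis1 of stem cells had the opposite order of libraries, with 11.5 and 40.4 FPKM in Metrn cKO, against 37.8 and 19.1 FPKM in Metrn f/f.

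Irf8, needed for monocytes and dendritic cells, was the member in which, as deposited, Metrn cKO 1 alone stood out. It had 107 and 50.1 FPKM in Metrn cKO 1 and 2, against 54.3 and 53.0 FPKM in Metrn f/f 1 and 2. The other libraries lay between 50.1 and 54.3 FPKM, although the Metrn f/f libraries differed at least 2-fold in 35.6% of the tested genes. This closeness depended on the scaling. With equal library sums Irf8 had 190 and 121 units in Metrn cKO and 138 and 78.9 units in Metrn f/f. With median-ratio scaling it had 113 and 45.4 in Metrn cKO and 51.4 and 57.9 in Metrn f/f. Group means were 78.4 ± 40.0 FPKM in Metrn cKO and 53.7 ± 0.959 FPKM in Metrn f/f (SD, n = 2 each). The log2 difference, 0.44 (SE 0.48), did not pass (limma, adjusted p = 1.00) and was -0.10 without Metrn cKO 1. The ratio of Irf8 to Gfi1 was 3.78 and 1.56 in Metrn cKO, against 1.48 and 2.50 in Metrn f/f.

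Monocyte and dendritic genes that depend on IRF8 were compared as a list of 15, of which 13 were tested. By limma 0 were higher and 0 lower, no member had groups apart, and the median log2 fold change was -0.05, between -1.06 and 0.97 over the omissions. Cd74, the invariant chain of antigen presentation, had 1009 and 113 FPKM in Metrn cKO, against 161 and 955 FPKM in Metrn f/f. Ly6c2, a monocyte surface gene, had 944 and 309 FPKM in Metrn cKO, against 363 and 869 FPKM in Metrn f/f. These genes were high in Metrn f/f 2 as well, where Irf8 was not. Dendritic cell markers summed to 46.6 and 8.51 FPKM in Metrn cKO, against 9.85 and 26.9 FPKM in Metrn f/f, and 7 of 7 reached 1 FPKM in Metrn cKO 1, 3 in Metrn cKO 2, 3 in Metrn f/f 1 and 5 in Metrn f/f 2. B and plasma cell markers summed to 1046 and 70.4 FPKM in Metrn cKO, against 59.5 and 532 FPKM in Metrn f/f. B cells also use Irf8, and the part of these cells in its level was not tested.

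Primary granule genes, which C/EBPα serves at the promyelocyte stage, varied less than the secondary granule genes. Their 6 members summed to 5600 and 4855 FPKM in Metrn cKO 1 and 2, against 5852 and 6777 FPKM in Metrn f/f 1 and 2. By limma 0 were higher and 0 lower, with a median log2 fold change of -0.23. Mpo, myeloperoxidase, had 1502 and 1997 FPKM in Metrn cKO, against 2376 and 1352 FPKM in Metrn f/f, and Elane, neutrophil elastase, had 1985 and 1308 FPKM in Metrn cKO, against 1628 and 2589 FPKM in Metrn f/f. Ctsg, cathepsin G, was the only member with groups apart, on the lower side (5.73% of all tested genes). It had 455 and 414 FPKM in Metrn cKO, against 469 and 611 FPKM in Metrn f/f. As deposited, Mpo was like Gfi1 lower in Metrn cKO 1 and Metrn f/f 2 than in the other library of the same genotype. Elane had the reverse order.

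Other lineage factors were compared as a list of 23, 22 of them tested, and 0 passed in either direction by limma, with a median log2 fold change of -0.18 that ran from -0.53 without Metrn cKO 2 to 0.19 without Metrn cKO 1. Cbfb, the RUNX partner, was the only one higher in both Metrn cKO libraries (6.31% of all tested genes). It had 61.2 and 60.0 FPKM in Metrn cKO, against 56.4 and 42.2 FPKM in Metrn f/f. Gata1 was the only one lower in both (5.73% of all tested genes). Myb, a factor of proliferating progenitors, had 83.5 and 153 FPKM in Metrn cKO, against 167 and 78.3 FPKM in Metrn f/f. Lmo2, a bridging factor of stem and erythroid cells, had 148 and 389 FPKM in Metrn cKO, against 313 and 376 FPKM in Metrn f/f. Neither followed Cebpe: Myb was high where Cebpe was low, and Lmo2 was low in Metrn cKO 1 only.

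Differences between each pair of libraries showed how far apart the members were within and across genotypes, on the log2(FPKM + 1) scale. Between Metrn cKO 1 and Metrn cKO 2, 4 of 8 members differed at least 2-fold (19.1% of all tested genes), and between Metrn f/f 1 and Metrn f/f 2 also 4 (35.6%). Across genotypes, 2 members did so between Metrn cKO 1 and Metrn f/f 1 (16.9%), 1 between Metrn cKO 1 and Metrn f/f 2 (13.4%), 3 between Metrn cKO 2 and Metrn f/f 2 (36.1%) and 0 between Metrn cKO 2 and Metrn f/f 1 (1.36%). Cebpb, Cebpd and Cebpe were beyond 2-fold within both genotypes, Irf8 within Metrn cKO only and Spi1 within Metrn f/f only. In Metrn cKO 2 minus Metrn f/f 1, the members lay between -0.20 for Cebpb and 0.24 for Cebpg. These libraries were also the most alike over all genes, with a median absolute difference of 0.15, against 0.47 to 0.75 in the other pairs.

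**Figure D3:**
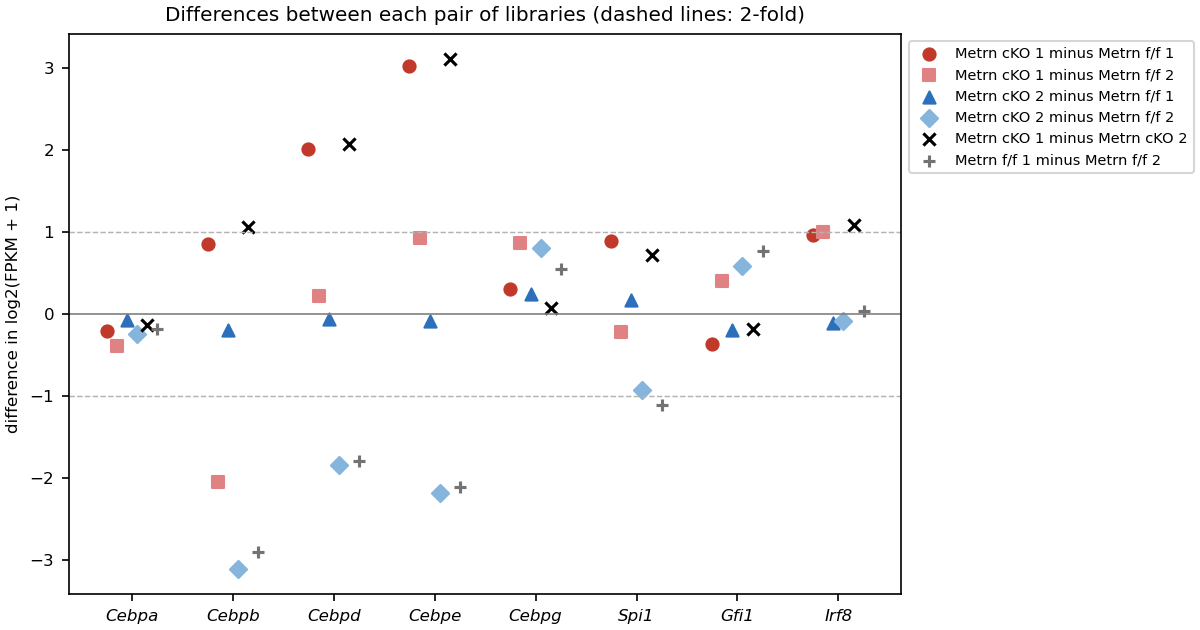
Difference in log2(FPKM + 1) of the 8 genes for the 4 pairs of a Metrn cKO and a Metrn f/f library and, in black and grey, for the pairs within a genotype; dashed lines mark 2-fold. Triangles (Metrn cKO 2 minus Metrn f/f 1) stay between -0.20 and 0.24 for all 8 genes, while differences within a genotype reach 3.11 for Cebpe.

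Patterns over the libraries were compared by the largest gap between genes in centred log2(FPKM + 1) over the 4 libraries, among 8912 tested genes averaging 4 FPKM or more, leaving out any with a predicted, RIKEN, pseudogene, microRNA or small nucleolar RNA name. With so few libraries many genes come close to any pattern, so these are descriptions. Nearest to Cebpa was Il2rg (gap 0.02), the common γ chain of lymphoid cytokine receptors, and nearest to Gfi1 was Ddx20 (0.01). Nearest to Spi1 were Mrpl18, Atp6v1e1 and Csf1r (0.04 to 0.05). Cebpb had no close neighbour, with Cxcl10, an interferon-induced chemokine gene, at 0.18, followed by the neutrophil gene Retnlg at 0.19 and Hebp1 at 0.24. Cebpe was next to Mapk13 at 0.13, Lrg1, a granulocyte glycoprotein gene, at 0.21 and Slamf6 at 0.25. Nearest to Cebpd was Prdx5 (0.04), to Cebpg Plekha2 (0.03) and to Irf8 Ccne2 and Slc8b1 (0.10). Within the 8 genes the closest pairs were Cebpg with Gfi1 (0.35), Cebpg with Irf8 (0.56) and Cebpa with Spi1 (0.57), and the farthest was Cebpb with Cebpg (2.57).

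**Figure D4:**
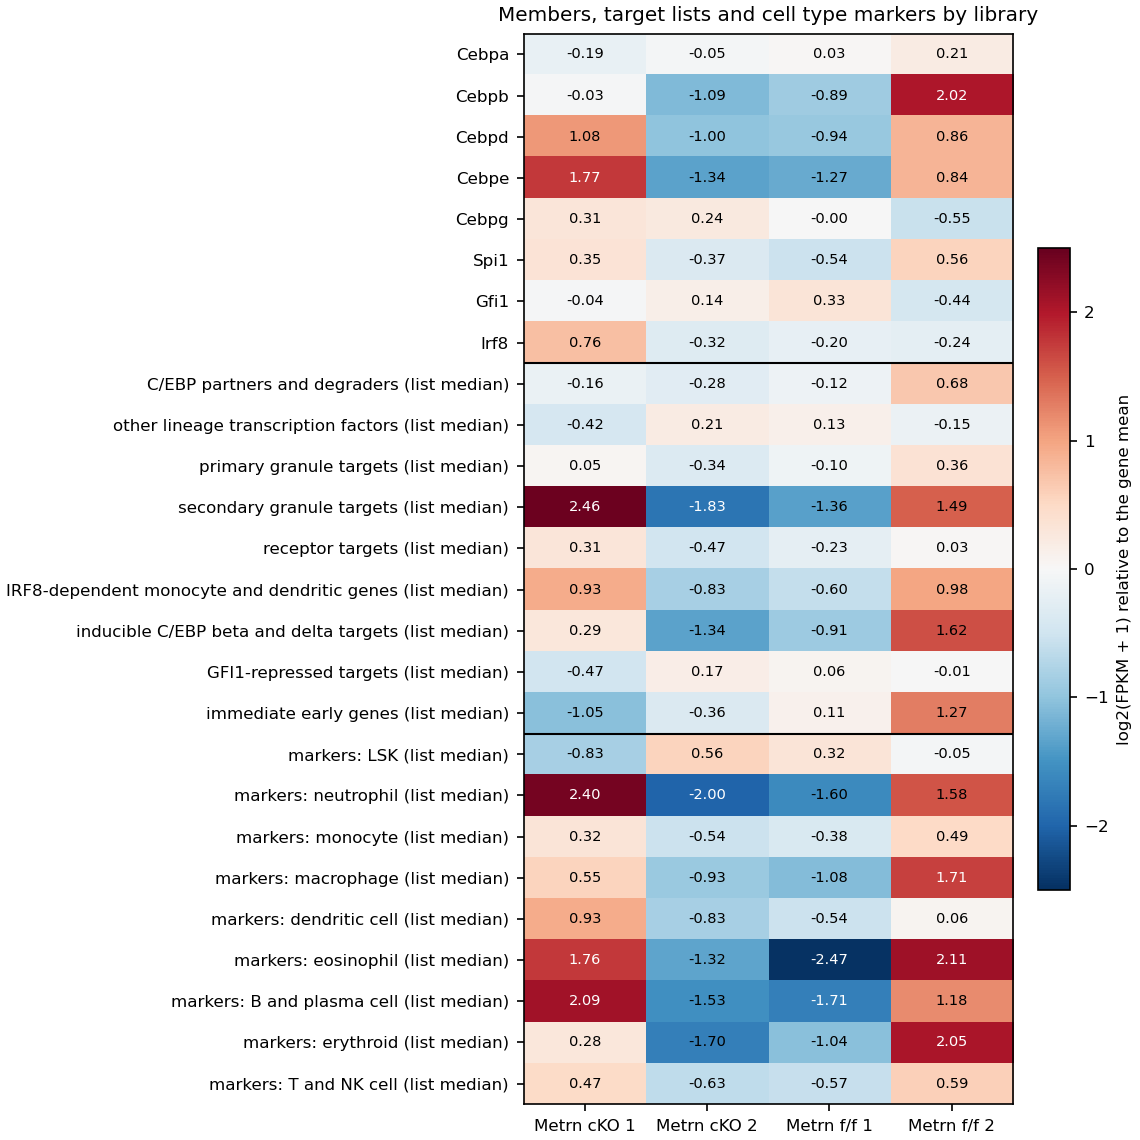
Log2(FPKM + 1) relative to each gene's mean over the 4 libraries, for the 8 genes (top) and as list medians for 9 pathway lists (middle) and 9 marker lists (bottom); red is above and blue below the mean. Cebpd and Cebpe are red in Metrn cKO 1 and Metrn f/f 2 as are the secondary granule and neutrophil lists, while the LSK marker median is -0.83, 0.56, 0.32 and -0.05 in Metrn cKO 1, Metrn cKO 2, Metrn f/f 1 and Metrn f/f 2.

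Marker lists give the values that stand beside these levels. Macrophage markers summed to 183 and 44.4 FPKM in Metrn cKO, against 38.1 and 967 FPKM in Metrn f/f, and thus peaked in Metrn f/f 2 as Cebpb did. C1qa had 44.2 and 7.50 FPKM in Metrn cKO, against 6.76 and 267 FPKM in Metrn f/f. Erythroid, eosinophil and T and NK cell markers also had their highest sum in Metrn f/f 2. Neutrophil, monocyte, dendritic cell and B and plasma cell markers had theirs in Metrn cKO 1. Monocyte markers summed to 1043 and 371 FPKM in Metrn cKO, against 435 and 968 FPKM in Metrn f/f. LSK markers summed to 341 and 771 FPKM in Metrn cKO, against 670 and 473 FPKM in Metrn f/f. Like this sum, Kit, Cd34 and Flt3 were lower in Metrn cKO 1 and Metrn f/f 2 than in the other library of the same genotype. Ly6a, the Sca-1 gene of the sort, had 48.5 and 38.2 FPKM in Metrn cKO, against 37.2 and 83.2 FPKM in Metrn f/f, and Cd48 had 56.3 and 50.6 FPKM in Metrn cKO, against 54.5 and 78.7 FPKM in Metrn f/f, both highest in Metrn f/f 2. T and NK cell markers other than Nkg7 reached at most 3.90 FPKM, with Cd3e, Cd3g and Trac at 0 in Metrn cKO 2 and Cd3d at 0 in Metrn f/f 1. The part of these cells in the member levels was not tested.

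Leaving out each library in turn changed the sign of 6 of the 8 fold changes. Cebpa stayed between -0.32 and -0.14 and Cebpg between 0.28 and 0.83. As deposited their groups did not overlap, so no omission could turn their sign, and keeping it adds no support. Cebpd ranged from -0.95 without Metrn cKO 1 to 1.12 without Metrn cKO 2, and Cebpe from -1.13 to 1.98 under the same omissions. Gfi1 ranged from -0.28 without Metrn f/f 2 to 0.49 without Metrn f/f 1. No omission brought a member past the threshold, and the smallest adjusted p of a member was 0.567, for Cebpb without Metrn f/f 1 (limma).

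**Figure D5:**
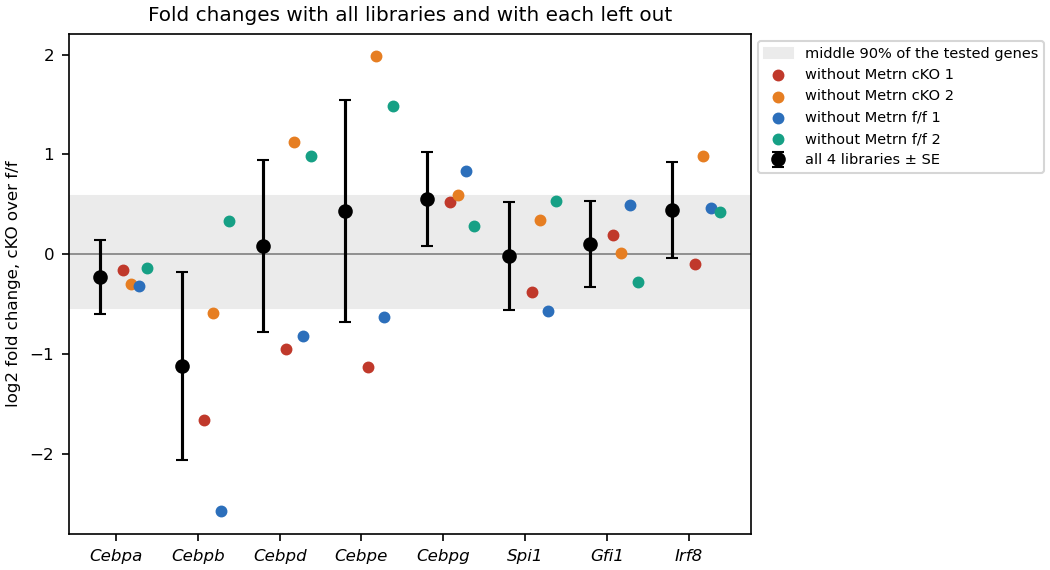
Log2 fold change of Metrn cKO over Metrn f/f for the 8 genes with all 4 libraries (black, with limma's SE) and with each library left out (coloured points); the grey band holds the middle 90% of 13148 tested genes, from -0.54 to 0.59. Only Cebpa and Cebpg keep their sign in every omission, as genes whose groups do not overlap must.

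The genes differ in structure in ways that bear on their measurement. On GRCm38 by GENCODE, Cebpa (chromosome 7, 35119293 to 35121928), Cebpb (chromosome 2, 167688915 to 167690418) and Cebpd (chromosome 16, 15887286 to 15891031) have their longest coding transcript in 1 exon. Cebpe (chromosome 14, 54710360 to 54712174) and Cebpg (chromosome 7, 35046422 to 35056573) have 2 exons, Spi1 (chromosome 2, 91082390 to 91115756) has 5, Gfi1 (chromosome 5, 107716657 to 107726036) has 6 and Irf8 (chromosome 8, 120736358 to 120756694) has 9. Cebpb and Cebpa are among the most GC-rich transcripts, at 67.2% and 62.6%, above 99.9% and 98.9% of 10962 tested coding genes, while Cebpg has 43.3%. Exons of Cebpb overlap those of Tmem189 on the other strand over 312 bases, and exons of Cebpd overlap those of Spidr over 562 bases. Without a stated strand setting, reads there cannot be told apart. Tmem189 had 28.3 and 21.5 FPKM in Metrn cKO, against 19.0 and 25.7 FPKM in Metrn f/f. Like Cebpb, it was higher in Metrn cKO 1 and Metrn f/f 2 than in the other libraries. Spidr had 9.75 and 11.7 FPKM in Metrn cKO, against 11.3 and 6.30 FPKM in Metrn f/f. Unlike Cebpd, it was lower in Metrn cKO 1 and Metrn f/f 2. The part of shared reads in these levels was not tested.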

How the data were processed

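For each library the authors deposited values by gene symbol, taken as FPKM (decimals, never negative, unequal sums), since the file headers name only the library. Per the submitters' processing notes, the tools were featureCounts 1.6.4, HISAT2 2.1, DESeq2 2.11.40.6, cutadapt 1.16.5 and bcl2fastq 2.19, with mm10; which of them made the values, the annotation and the strand setting were not given in the sources used here. Read totals could not be recovered, since at most 0.454% of low values shared a step, so the depth is unknown and no counting interval is given.

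A gene was tested if 2 or more libraries reached 1 FPKM, which left 13148 genes including all 8 members. The genotypes were compared by limma 3.58.1 in R 4.3.3 on log2(FPKM + 1) with an intensity trend, two-sided, at 0.05 after Benjamini-Hochberg adjustment over these genes. Fold changes on this scale understate low genes. In simulated data the fit recovered known changes with the spread of the 2 most alike libraries, but none with the spread seen within genotypes, so the absence of calls sets no limit on the size of a difference. Coordinates came from GENCODE M21. RefSeq promoters (GRCm38.p6) were found for 5 of 8 members: Cebpa, Cebpb, Cebpg, Gfi1 and Irf8. The members and lists were chosen with earlier results of these data known. Named genes were the members, Metrn, Lyz2, the 2 highest of each list, up to 3 list genes with groups apart, and the nearest patterns; others are said to be chosen later.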

Additional observations from a re-analysis of the deposited data

How the results depend on the processing

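No member passed under any alternative. The count of called genes stayed at 0 in both directions with a pseudocount of 0.1, with no filter, with a mean of at least 4 FPKM, with equal sums, with median-ratio scaling and without the intensity trend. With the replicate number as a block 3 genes were higher and 1 lower, the lower one being Nr4a1 (limma, adjusted p = 4.33e-05), and Cebpg, at a log2 fold change of 0.55, remained uncalled. The labels give replicate numbers only and do not say whether same-numbered libraries were handled together. Such libraries deviated in opposite directions (r = -0.708 across 13148 genes). This cannot settle the question, since their mature cell transcripts differed in opposite directions too. With the crossed pairing, chosen after seeing the data, 37 of 13148 genes were higher and 65 lower, among them 8 immediate early genes. That pairing was picked to match the spread of these same libraries, so its calls carry no weight as a test. Leaving out each library gave 0 to 32 genes higher and 0 to 5 lower. Spi1 turned to 0.07 with equal sums. Over the omissions the log2 fold change ranged from -2.58 to 0.33 for Cebpb, -0.95 to 1.12 for Cebpd, -1.13 to 1.98 for Cebpe, -0.57 to 0.53 for Spi1, -0.28 to 0.49 for Gfi1 and -0.10 to 0.98 for Irf8; the cause was not tested. An omission leaves 1 library in a group, assumed to vary like the others. Of 24 member values under the pseudocount and both scalings, the settings that can change a fold change in this design, Spi1 was the 1 that turned. Over the omissions the list medians ranged from -0.95 to -0.08 for C/EBP partners, -0.53 to 0.19 for other lineage factors, -0.62 to 0.21 for GFI1-repressed genes, -1.96 to -0.80 for immediate early genes, -1.81 to 0.39 for inducible targets and -1.57 to 2.63 for secondary granule genes. The limits are 2 mice a group, unknown depth and mature cell transcripts that differ within each genotype.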
